A study of Juglans regia with 21 samples.

Results

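Early and late pellicles of walnut were compared by setting the average of the 3 late stages, 15, 17 and 19 weeks after pollination (15W, 17W and 19W), against the average of the 2 early stages, 8 and 9 weeks (8W and 9W). The comparison uses 15 of the 21 libraries: 9 late and 6 early, 3 for each stage. A gene was kept as one-sided where it passed the test and all 3 late stage means lay above, or all below, both early stage means. The pellicle is the papery skin, a seed coat, that encloses the kernel. All libraries come from Juglans regia of 1 cultivar, Xinwen179, field-grown, with no treatment in the labels, so that the weeks after pollination are all that separates the groups by label. The 11W and 13W stages lie between both classes and are not used by the contrast. Whether the 3 libraries per stage were taken from different trees is not in the labels. The p-values therefore rest on the spread among these libraries alone, which may be technical. Library totals lay between 13144713 and 17878761 reads.

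A seed coat grows from the maternal layers of the ovule. While it expands it imports sugar for the filial tissue inside, lays down a cuticle and deposits phenolic polymers in its walls, and it often dies back as the seed matures. In walnut it is known for tannins and other phenolics, which give the kernel skin its astringency. In Arabidopsis the coat passes sucrose on to the embryo through SWEET transporters, and laccases oxidise phenolics in its walls.

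Most of the genes tested differed on average between early and late pellicle. Of 21707 genes tested, 8920 (41.1%) were higher and 8824 (40.7%) lower in the late stages in edgeR's quasi-likelihood test at an adjusted p under 0.05. Among them, 5487 rose one-sidedly (25.3% of the genes tested) and 5597 fell one-sidedly (25.8%), which is 62.5% of the genes called. At least 2-fold was reached by 3077 one-sided rises (14.2%) and 3706 one-sided falls (17.1%), and at least 4-fold by 1520 and 2105. The median log2 change was 1.13 among one-sided rises and -1.46 among one-sided falls. In 3786 rises and 3814 falls no late library overlapped any early library, which the choice by stage means favours. These counts follow the scaling of the libraries. With library sizes alone in place of TMM factors the median of all genes moved by -0.28 (log2), and by -0.15 with upper-quartile factors. The one-sided genes were then 3707 rises and 7629 falls with library sizes alone, so that 32.7% of them rose in place of 49.5%.

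The one-sided genes held a large part of the reads. One-sided rises held 22.2% to 24% of the scaled reads of the 6 early libraries and 44.1% to 51.2% of those of the 9 late libraries. One-sided falls held 26.4% to 28.1% early and 8.09% to 9.66% late. The direction of these shares is set by the choice of the genes, so that only their size is described. CPM is the read count scaled to a common library size with TMM factors and is not divided by gene length. The median read level in the higher class was 41.6 CPM for the rises and 16.6 CPM for the falls, with median gene lengths of 1350.0 and 1539 bases.

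The stages that the rule did not use lay between both classes in share of reads, and split gene by gene. One-sided rises held 34.6 ± 0.962% (SD, n = 3) of the reads at 11W and 39.4 ± 1.08% at 13W. At 11W, 34.3% of the one-sided rises were still at or below the higher early stage, 32.3% lay in the gap, and 33.4% had reached the lowest late stage. At 13W the share that had reached the late side was 46.9%, and 17.4% were still on the early side. One-sided falls were later: 23.0% had reached the late side at 11W and 41.6% at 13W. Only 904 rises (16.5%) and 669 falls (12%) were on the late side at both stages. Of the rises 927 were on the late side at 11W and not at 13W, and of the falls 616, so the order of the weeks was not the order of the levels in each gene.

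**Figure D1:**
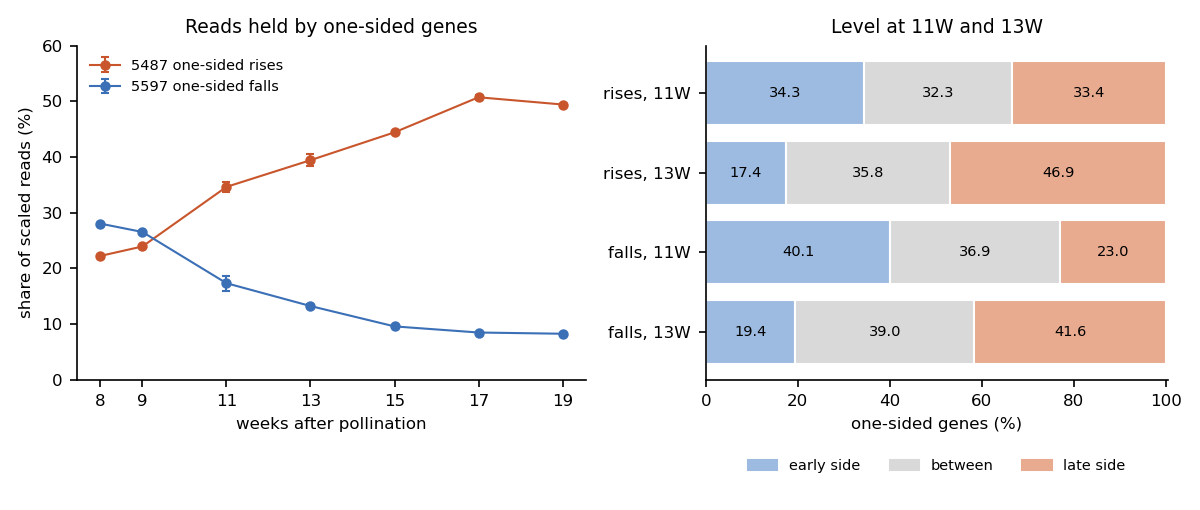
Left: share of scaled reads (%) in one-sided rises and falls against weeks after pollination, mean with SD bars of 3 libraries. Right: percent of one-sided genes whose 11W or 13W mean lay on the early side, between the classes, or on the late side. The share of the rises climbed from 22.2% at 8W to 50.7% at 17W, and that of the falls went from 28.0% to 8.22% at 19W.

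Markers of the labelled tissue and of other tissue were read beside the contrast. Genes known from the seed coat of Arabidopsis and other species (anthocyanidin reductase, leucoanthocyanidin reductase and TRANSPARENT TESTA proteins) were present in all libraries. Their 18 tested members summed to 309 to 406 CPM early and 118 to 261 CPM late. Of them 11 were called as falls and 3 as rises, and 8 fell (44.4%) and 3 rose (16.7%) one-sidedly. Over all genes tested these one-sided shares were 25.8% and 25.3%. Kernel markers moved with the contrast: the 10 seed storage genes summed to 155 to 1081 CPM early and 2727 to 21475 CPM late. In bulk RNA fewer cells of a type and less RNA per cell cannot be told apart. The part of kernel tissue in the results below was not tested.

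Genes of the circadian clock differed between stages within both classes. The 3 LHY genes, which peak around dawn in other plants, summed to 28.9 ± 3.52 CPM at 8W and 502 ± 41.5 CPM at 9W. They stood at 208 ± 4.15, 95.8 ± 7.13 and 392 ± 15.3 CPM at 15W, 17W and 19W. Late levels thus lay between the early ones. All 3 genes were called as rises, and none of them was one-sided. Of 28 clock genes, 7 rose and 3 fell, REVEILLE 1 (Jr2SG00047100) from 27.0 and 40.4 CPM to 77, 89.2 and 111 CPM and REVEILLE 5 (Jr1DG00068400) by 1.03 on the log2 scale. A second REVEILLE 1 gene (Jr2DG00070000) stood at 28.9 CPM at 8W, 250.1 at 9W and 115, 79.6 and 176 CPM late. Hours of sampling are not in the labels, and the part of time of day was not tested.

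**Figure D2:**
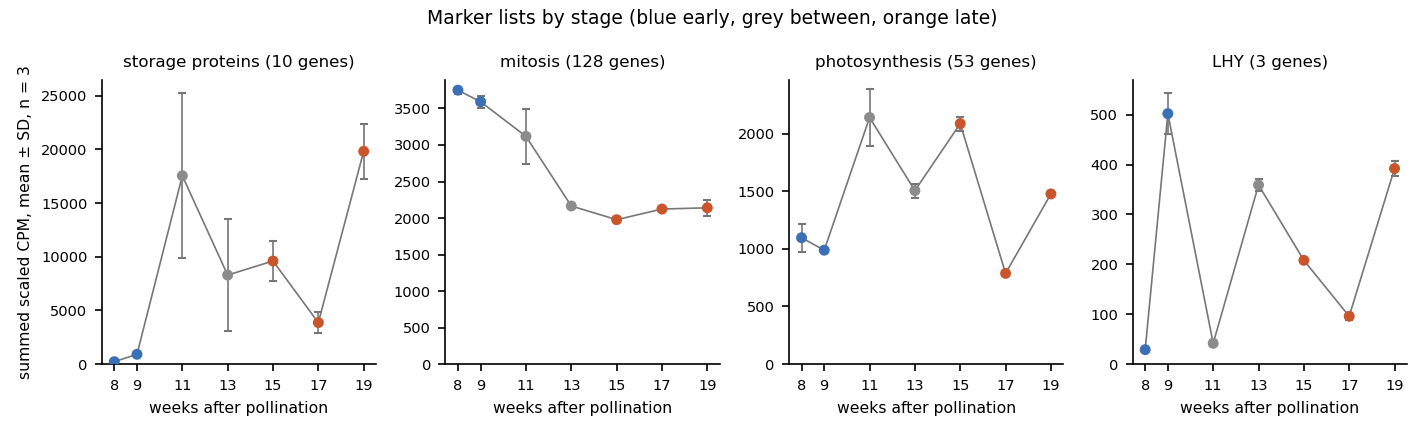
Summed scaled CPM (mean with SD bars, n = 3) of storage protein, mitosis, photosynthesis and LHY genes against weeks after pollination. Storage genes were higher in the late than in the early stages and mitosis genes lower, while LHY was lowest at 8W and highest at 9W, with the late stages between.

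The genes with the widest gap between the nearest early and late stage were, among the rises, in part genes of seed maturation by name. The widest belonged to a 48-kDa glycoprotein precursor (Jr4SG00109000, chromosome 4S, 14129021 to 14131427), a name used for a vicilin-type storage globulin of hazel. It ran from 0 to 0.288 CPM over the 6 early libraries, median 0.138, and from 238 to 1442 CPM over the 9 late libraries, median 441. The groups did not overlap, and its lowest late stage was 505-fold above its highest early stage on the scale with 0.5 CPM added (log2 change 11.89 ± 0.561 (SE), adjusted p = 1.24e-11). Without 8W replicate 3 the log2 change was 12.74. Second came an 18 kDa seed maturation protein (Jr5DG00028300), from 0.185 and 0.353 CPM to 346, 846 and 1649 CPM. The desiccation-related protein PCC13-62 (Jr4DG00117100), first known from a resurrection plant, stood at 0.183 and 0.361 CPM early and at 129.9 to 272 CPM late. Both genes stood at their highest at 19W. The gene Jr1SG00075800 for oil body-associated protein 1A (chromosome 1S, 15080628 to 15081817) and the tonoplast aquaporin TIP3-2 (Jr8SG00074600, chromosome 8S, 12154643 to 12156171), a seed-type water channel in Arabidopsis, had 0 reads in all 6 early libraries. With 3 reads taken as the floor in each library, their late means were at least 787-fold and at least 331-fold higher.

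The other wide rises were not storage genes by name. IAA29 (Jr4DG00217000, chromosome 4D, 34723890 to 34727123), an Aux/IAA repressor of auxin response, read 3.04, 3.06 and 3.45 CPM in the 8W libraries and 5.17, 3.91 and 5.52 in those of 9W. Late, it read 3325, 3257 and 3331 CPM in the 15W libraries, 1398, 1692 and 1609 in those of 17W and 2227, 2183 and 1994 in those of 19W. All 9 late libraries lay far above all 6 early ones, with the highest values at 15W (log2 change 9.14 ± 0.167 (SE), adjusted p = 1.02e-19). The 11W mean, 118 ± 44.7 CPM, lay between the classes, and the 13W mean, 2069 ± 64.7 CPM, on the late side. A SWEET10-like sugar transporter (Jr6SG00012100) ran from 0.298 to 0.729 CPM over the 6 early libraries, median 0.611, and from 259 to 742 CPM over the 9 late libraries, median 355 (log2 change 9.51 ± 0.155 (SE), adjusted p = 5.22e-21). Aldehyde dehydrogenase 2C4 (Jr2SG00168900), an enzyme that makes ferulic and sinapic acid in Arabidopsis, rose from 0.301 ± 0.118 and 2.28 ± 0.325 CPM to 838 ± 17.7 CPM at 17W. NAC 21/22 (Jr2SG00189700) and MLP-like protein 28 (Jr3DG00184700) had 0.789 to 1.90 CPM early and 162 to 526 CPM late, and 0.127 to 1.44 CPM early and 123 to 302 CPM late.

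The 10 widest falls included 3 lipid-transfer protein and 2 polygalacturonase genes. A non-specific lipid-transfer protein (Jr5DG00092500, chromosome 5D, 9038433 to 9038666), one of the small secreted proteins that carry lipids and are abundant in epidermis, read 596, 649 and 598 CPM in the 8W libraries and 881, 801 and 815 in those of 9W. The 9 late libraries held 23 reads of it in all, 0 to 1.23 CPM. It was already at 0.380 ± 0.215 CPM at 11W, which is at the late level (log2 change -12.39 ± 0.19 (SE), adjusted p = 4.56e-20). Without 17W replicate 2 or 19W replicate 3 the log2 change was -13.34 and -13.26. Another lipid-transfer protein gene of chromosome 5D, Jr5DG00093200, went from 768 and 412 CPM to at most 0.673 CPM in a late stage. The carrot DC2.15-like proline-rich protein (Jr6DG00157300) went from 765 and 412 CPM to at most 0.758 CPM, and the lipid-transfer protein DIR1 (Jr7SG00047000) from 240.1 and 116 CPM to at most 0.685 CPM. Near-identical copies could share reads of these small genes, since the read counter's handling of them is not given. The fitted log2 changes of the last 3, -11.14, -10.36 and -10.13, were -11.76 and -11.07 without 19W replicate 3 for the first 2 and -10.80 without 17W replicate 3 for DIR1.

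Pectin and acyltransferase-family genes were among the remaining wide falls. A pair of polygalacturonases, which cut pectin, ended near 0: Jr1DG00067500 had 129 to 311 CPM early and 0.0814 to 1.28 CPM late, and Jr1SG00086400 56 to 80.2 CPM early and 0 to 0.535 CPM late. The 21 kDa protein-like gene Jr2SG00059700 had early means of 195 and 112 CPM and late means of at most 0.376 CPM. Serine carboxypeptidase-like 17 (Jr3SG00165000) had 71.6 to 177 CPM early and 0 to 0.891 CPM late. For Jr1SG00086400 and Jr3SG00165000 the log2 changes of -8.76 and -8.41 were -9.75 without 19W replicate 3 and -9.24 without 17W replicate 1. The succinylbenzoate-CoA ligase gene Jr5DG00130200 kept 3 reads over all late libraries from an early mean of 56.7 CPM, a ratio of 2242 (95% counting interval 762 to 10802, counting error only). Its fitted log2 change of -11.10 was -11.82 without 19W replicate 3.

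A pair of insoluble invertases moved in opposite directions. The cell wall invertase CWINV1 (Jr1SG00140000, chromosome 1S, 24802222 to 24805892), which splits sucrose outside the cell, read 4380.1, 4505 and 4959 CPM in the 8W libraries and 1943, 1875 and 1728 in those of 9W. It read 362, 239 and 274 CPM in the 15W libraries, 37.9, 43.4 and 30.4 in those of 17W and 34.6, 30.1 and 33.6 in those of 19W (log2 change -5.37 ± 0.0899 (SE), adjusted p = 1.2e-22). The late libraries were all below the early ones, and 17W and 19W were far below 15W. A second insoluble invertase, named isoenzyme 1-like (Jr5SG00010500, chromosome 5S, 931035 to 936144), did the reverse. It read 36.1, 31.9 and 35.5 CPM in the 8W libraries and 33.1, 26.1 and 35 in those of 9W, then 677, 629.7 and 668, 1591, 1919.8 and 1433 and 1174, 1184 and 1156 CPM at 15W, 17W and 19W (log2 change 5.04 ± 0.119 (SE), adjusted p = 2.08e-18). At 11W and 13W it stood at 194 ± 49.3 and 567 ± 81.5 CPM, and CWINV1 at 756 ± 50.8 and 805 ± 87.5 CPM. Of 85 sucrose and starch genes, 19 rose (22.4%) and 24 fell (28.2%); the median log2 change of 0.10 turned to -0.06 (upper-quartile factors) and -0.18 (library sizes alone). All genes tested had a median of 0.00.

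The sucrose exporter SWEET15 (Jr3DG00093800), which in Arabidopsis feeds the embryo from the seed coat, read 89.2, 74.6 and 80.4 CPM in the 8W libraries and 167, 147 and 164 in those of 9W, and between 2309 and 2884 CPM in the 9 late libraries. All late libraries lay above all early ones, the late stage means were nearly level, and 13W stood just under them (2293 ± 144 CPM; log2 change 4.47 ± 0.0998 (SE), adjusted p = 1.25e-20). A second SWEET10-like gene (Jr6DG00002700) rose by 1.45 on the log2 scale, and a SWEET4-like gene (Jr6SG00088600) went from 2.25 and 2.33 CPM to between 27.5 and 31.3 CPM. Among 47 sugar transporters as many as 16 fell and 13 rose, and the median log2 change was -0.33. Their summed level went the other way, from 1593 to 1705 CPM early to 4152 to 5834 CPM late, of which SWEET15 alone held 2399.6 to 2614 CPM by stage mean.

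Phosphoenolpyruvate carboxylase, which fixes bicarbonate to make oxaloacetate, had the highest early CPM among the named falls of at least 2-fold. The gene Jr4DG00041900 (chromosome 4D, 4420087 to 4425929) read 12814, 12680.4 and 11259 CPM in the 8W libraries and 11457, 10381 and 9818 in those of 9W. Late stage means were 802, 1006 and 576 CPM, and most of the drop lay before 11W, at 1735 ± 326 CPM (log2 change -3.88 ± 0.0827 (SE), adjusted p = 6.16e-22). Annexin RJ4 (Jr7DG00011000), a calcium-dependent membrane-binding protein, fell from 1109 ± 119 and 3195 ± 359 CPM to 199.5 ± 124, 3.73 ± 1.37 and 11.3 ± 1.51 CPM, with 15W still the highest late stage. Peroxidase 42 (Jr5SG00070100) and a 36.4 kDa proline-rich protein (Jr2SG00069800) fell by 2.08 and 4.17 on the log2 scale, the latter from 3282 CPM at 8W and 658 at 9W. The rises with most reads included a pair of metallothioneins, small metal-binding proteins that are abundant in ripening and senescing tissue. The type 2 gene (Jr7DG00092000) had 469.5 to 533 CPM early and 2571 to 3946 CPM late, and Jr6DG00171400 had 264 to 610.0 CPM early and 1744 to 4941 CPM late. A DNAJ co-chaperone (Jr7DG00042200) stood at 4379 and 1113 CPM early and 4980.3 to 6838 CPM late, so that 8W lay close under the late stages. Homocysteine S-methyltransferase 3 (Jr1DG00211000), a methionine-forming enzyme, rose by 3.80 and a beta-galactosidase (Jr2DG00209100) by 1.79 on the log2 scale.

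**Figure D3:**
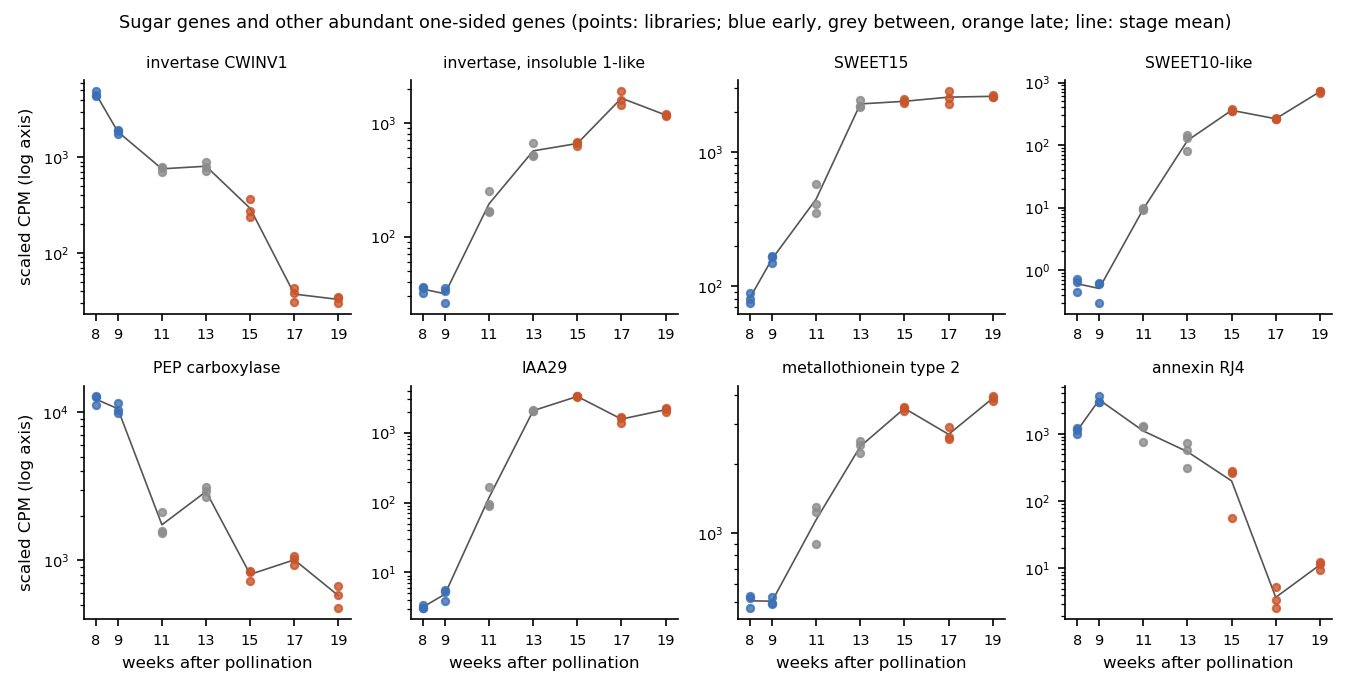
Scaled CPM (log axis) in each of the 21 libraries against weeks after pollination for 8 genes, with lines through the stage means. CWINV1, phosphoenolpyruvate carboxylase and annexin RJ4 were lower in all 9 late than in all 6 early libraries, and the second invertase, SWEET15, the SWEET10-like gene, IAA29 and the metallothionein were higher.

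Genes named by function were grouped into 51 lists by product name. In the counts that follow, rose and fell mean one-sided genes, and the shares over all genes tested are 25.3% and 25.8%.

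**Figure D4:**
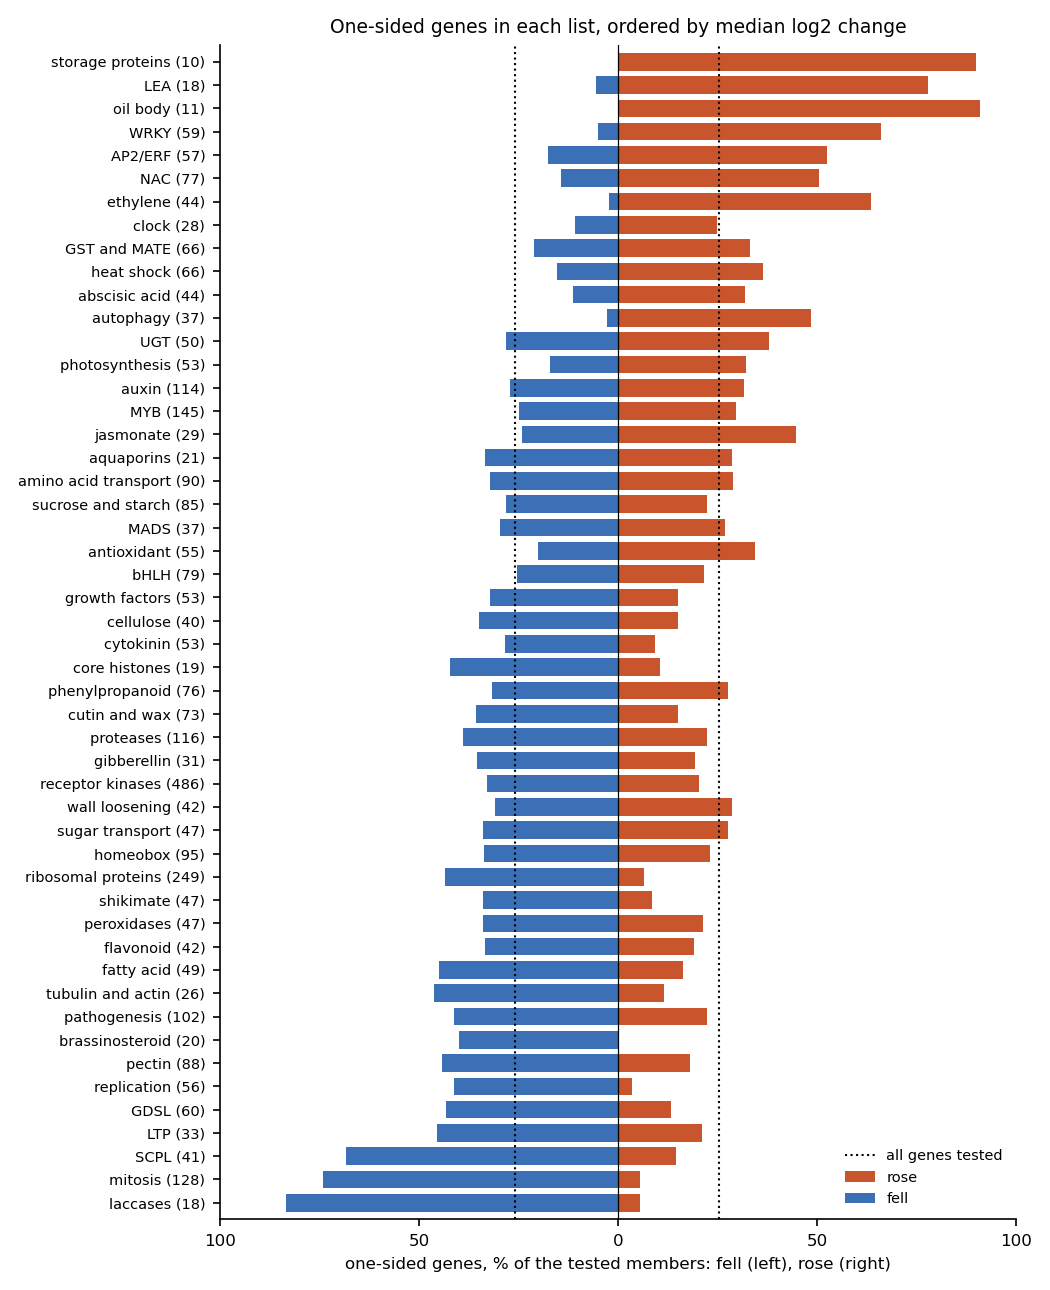
Percent of each list's tested members that fell (left) or rose (right) one-sidedly, for lists of at least 10 tested members (number in brackets), ordered by median log2 change, with dotted lines at the shares over all genes tested. Storage, oil body and WRKY genes stood far right, and laccases, mitosis and serine carboxypeptidase-like genes far left.

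Lists of cell division genes held more falls than rises. Of 128 tested genes for mitotic cyclins, kinesins and spindle proteins 95 fell (74.2%) and 7 rose (median -2.51). Their summed level went from 3498 to 3802 CPM early to 1945 to 2262 CPM late. Of these falls, 6 of the 95 were at the late level at 11W and 31 at 13W, against 23.0% and 41.6% of all one-sided falls. Kinesins were listed by name, whether or not the name points to division. The one-sided members with most reads were kinesins with small changes. Kinesin-13A (Jr1DG00165700) went up by 0.35, or 0.06 with library sizes alone (adjusted p = 0.201), and a chloroplast-movement kinesin (Jr4DG00049200) had -0.31. Of 56 replication factors 23 fell and 2 rose (median -0.90). Replication factor C subunits 1 and 2 (Jr7SG00110600 and Jr8SG00023700), which load the clamp of DNA polymerase, had log2 changes of -0.91 and -0.69. Among 19 core histones 8 fell and 2 rose (median -0.17), with log2 changes of -0.44 for a histone H2A (Jr5SG00158600) and -0.64 for an H2B-like gene (Jr7SG00074300). The histone sum overlapped between classes, at 1666 to 2004 CPM early and 1478 to 2162 CPM late.

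Lists of the cytoskeleton and of ribosomes also held more falls than rises. Of 26 tubulins and actins 12 fell (46.2%) and 3 rose. An alpha tubulin (Jr3DG00020900) had 356, 346 and 287 CPM in the 8W libraries and 1045, 948 and 1039 in those of 9W, and 66.8 to 87.1 CPM over the 9 late libraries (log2 change -2.91 ± 0.125 (SE), adjusted p = 6.78e-13). It was highest at 9W and at its late level from 13W on. Actin 7 (Jr2DG00113800) fell by 0.65 on the log2 scale. Of 249 ribosomal proteins 108 fell (43.4%) and 16 rose (median -0.39), with sums of 18583 to 21884 CPM early and 13528 to 18015 CPM late. The proteins L5 (Jr1DG00185800) and L7a (Jr2SG00037200) fell by 0.82 and 0.47, L7a with overlap between libraries. Of 53 TCP, GRF, YABBY and SPL growth regulators 17 fell and 8 rose. The 2 one-sided members with most reads rose, SPL14 (Jr4SG00077300) by 1.05 and TCP20 (Jr2DG00052600) by 1.67 on the log2 scale.

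Laccases, the copper oxidases that polymerise lignin and other phenolics in the wall, fell in a larger share than any other list of at least 10 tested members. Of 18 tested laccases 15 fell (83.3%) and 1 rose, and the median log2 change was -5.28, or -5.26 where a member with 0 reads takes its bound. Their sum was 324 to 548 CPM over the early libraries and 11.1 to 22.4 CPM over the late libraries. Laccase-9 (Jr8DG00009000, chromosome 8D, 1149416 to 1160849) read 138, 148 and 128 CPM in the 8W libraries and 212, 246 and 204 in those of 9W, and 0.244 to 1.72 CPM late (log2 change -7.47 ± 0.145 (SE), adjusted p = 3.31e-19). It was at 10.1 ± 2.78 CPM at 11W and still falling to 13W. A second laccase-9 (Jr8SG00006800) was highest at 8W, 222 ± 1.62 CPM, and fell by 4.53 on the log2 scale. Class III peroxidases, the other wall oxidases, went both ways: 16 of 47 fell and 10 rose (median -0.43). Their summed level was 2867 to 3369.8 CPM early and 784 to 1384 CPM late. Peroxidase 42 held 2152 and 2046 CPM of it early and 578, 351 and 598 CPM late. Peroxidase 4-like (Jr1DG00303600) had 9.12 to 11.0 CPM early and 88.0 to 317 CPM late without overlap (log2 change 4.08 ± 0.0771 (SE), adjusted p = 1.05e-22).

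Genes of surface lipids fell more often than they rose. Of 60 GDSL esterases and lipases, a family that includes cutin-forming enzymes, 26 fell (43.3%) and 8 rose (median -1.03). Summed over the list, levels overlapped, at 2278 to 12622 CPM early and 914 to 2521 CPM late. The one-sided members with most reads were the At1g71691-type genes Jr2DG00016400 and Jr2SG00011300. The first read 1353, 1124 and 1265 CPM in the 8W libraries, 176, 230.0 and 148 in those of 9W and 3.74 to 19.2 CPM in the late stage means (log2 change -5.59 ± 0.163 (SE), adjusted p = 7.53e-15), and the second fell by 5.19 on the log2 scale. Both were several-fold higher at 8W than at 9W. Lipid-transfer proteins fell in 15 of 33 members and rose in 7 (median -2.0). Their summed level overlapped, at 4004 to 5725 CPM early and 1531 to 9216 CPM late, and the 19W mean of 8744 ± 464 CPM was above both early means. A member with many reads, Jr5DG00207700, went from 741 and 399.8 CPM to 72.0 to 323 CPM, with overlap between libraries, and Jr3SG00156800 rose by 1.21. Of 73 cutin, suberin and wax enzymes 26 fell and 11 rose (median -0.22). HOTHEAD (Jr1DG00236400), which in Arabidopsis oxidises cutin monomers and keeps organs from fusing, read 1059, 1105 and 1040.5 CPM in the 8W libraries and 378, 353 and 327 in those of 9W. Late it ran from 17.1 to 80.4 CPM and was lowest at 17W (log2 change -3.71 ± 0.0607 (SE), adjusted p = 7.24e-24). Long chain acyl-CoA synthetase 8-like (Jr2DG00264000) rose by 0.50 on the log2 scale.

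**Figure D5:**
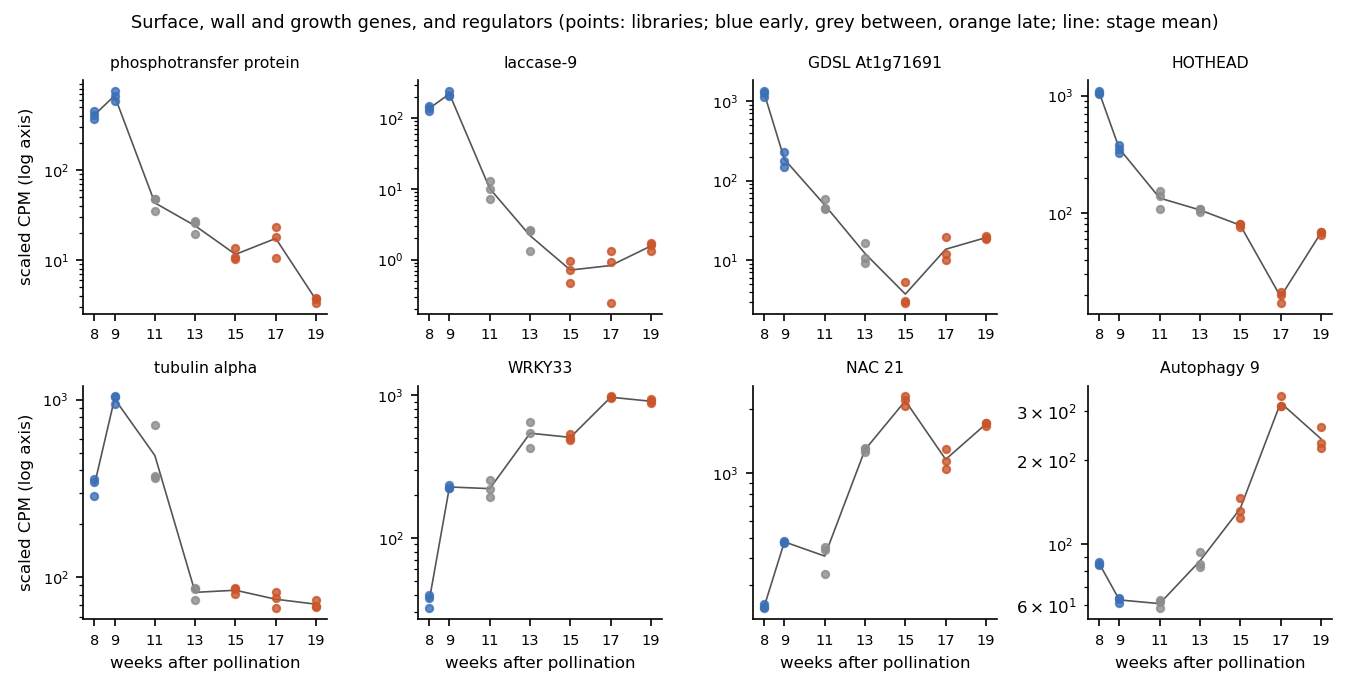
Scaled CPM (log axis) in each library against weeks after pollination for 8 genes, with lines through the stage means. The phosphotransfer protein, laccase-9, the GDSL gene, HOTHEAD and the alpha tubulin were lower in all late than in all early libraries, and WRKY33, NAC 21 and Autophagy 9 higher.

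Serine carboxypeptidase-like proteins, some of which are acyltransferases that build galloylated and other acylated phenolics, fell in 28 of 41 members (68.3%) and rose in 6 (median -2.31). Their sum went from 1873 to 2238 CPM to 964 to 1327 CPM. The list was matched by product name and also holds a serine carboxypeptidase of the S28 family (Jr4DG00060400), which is not named as carboxypeptidase-like. This gene, up by 0.83, and serine carboxypeptidase-like 48 (Jr7DG00124400), which fell by 1.78 with libraries that overlapped, were the one-sided members with most reads. Serine carboxypeptidase-like 25 (Jr2DG00080500) rose in a step, from 1.96 ± 0.381 and 2.60 ± 0.510 CPM to 37.3 ± 6.48, 44.1 ± 8.18 and 40.6 ± 4.04 CPM (log2 change 4.16 ± 0.129 (SE), adjusted p = 6.78e-18).

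Lists of phenolic enzymes held both rises and falls. Phenylpropanoid entry and monolignol enzymes rose in 21 and fell in 24 of 76 members (median -0.20). Cinnamoyl-CoA reductase 1 (Jr7SG00057300), a monolignol enzyme, rose by 0.48 and a 4-coumarate:CoA ligase-like gene (Jr7DG00117800) by 0.78. Of 42 flavonoid enzymes 14 fell and 8 rose (median -0.49). Dihydroflavonol 4-reductase (Jr8DG00061900) had 29.7, 26.8 and 35 CPM in the 8W libraries, 56.8, 61.2 and 61.4 in those of 9W and 113 to 138 CPM late (log2 change 1.55 ± 0.0608 (SE), adjusted p = 3.99e-17). Anthocyanidin synthase (Jr6DG00150000), the next enzyme on the path to anthocyanins, had 83.0, 86.4 and 77.4 CPM in the 8W libraries, 178, 161 and 153 in those of 9W and 12.4 to 57.4 CPM late (log2 change -1.94 ± 0.132 (SE), adjusted p = 5.61e-10). The former rose and the latter fell, each without overlap. On the branch to flavan-3-ols, the units of tannins, an anthocyanidin reductase (Jr5DG00075400) had 37.1 ± 1.41 and 139.5 ± 11.5 CPM early and 29.9 ± 0.449 to 146 ± 25.1 CPM late, and was not called (adjusted p = 0.793). Leaving out a stage gave a call in either direction, with a log2 change of 0.98 without 9W, 0.67 without 17W, -0.93 without 8W and -0.47 without 19W. Of the leucoanthocyanidin reductases, Jr8SG00081600 fell from 35.1 ± 3.41 and 62.7 ± 3.83 CPM to at most 2.04 CPM, and Jr8SG00002900 fell by 0.91 on the log2 scale. TRANSPARENT TESTA 16 (Jr3DG00159800), a MADS factor of the inner seed coat in Arabidopsis, fell by 2.63.

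Of 47 shikimate and aromatic amino acid enzymes 16 fell and 4 rose (median -0.41), and 13 of the 16 were at the late level by 13W. Chorismate mutase (Jr2DG00018700), which leads to phenylalanine, rose by 1.70 and chorismate synthase (Jr1SG00167300) by 0.75. UDP-glycosyltransferases, which add sugars to small molecules, rose in 19 and fell in 14 of 50 members (median 0.43), 71K2-like (Jr2DG00101100) by 1.78 and 73B4-like (Jr6DG00110700) by 0.86 on the log2 scale. Both polyphenol oxidase genes, the enzymes of browning, had a sum of 1.38 to 11.2 CPM early and 2.75 to 17.2 CPM late; 1 fell and 0 rose. At 13W, outside the contrast, the sum was 70.3 ± 6.05 CPM, above every early and late library.

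Wall polysaccharide genes went both ways. Expansins and xyloglucan endotransglucosylases, which loosen and re-join wall polymers, rose in 12 and fell in 13 of 42 members. The one-sided members with most reads, the endotransglucosylase genes Jr5DG00141400 and Jr4DG00188800, rose by 3.61 and 5.51. Jr5DG00141400 had early means of 32.3 and 196 CPM and late means of 305, 1926 and 1581 CPM. Of the 12 rises in this list 10 were at the late level at 11W and 1 at 13W, so most stood lower again at 13W. Of 88 pectin genes 39 fell (44.3%) and 16 rose (median -0.84). Galacturonosyltransferase 8 (Jr7SG00041400), a pectin-building enzyme, rose by 1.35, and pectinesterase 31 (Jr2DG00021000) by 0.32, or by 0.04 with library sizes alone (adjusted p = 0.474). Of 40 cellulose synthase and COBRA genes 14 fell and 6 rose (median -0.12), while cellulose synthase 2 (Jr2DG00117600) rose by 1.13 and COBRA-like protein 7 (Jr1DG00161100) by 3.12. The summed level of this list went up, from 1259 to 1421 CPM early to 1501 to 1971 CPM late.

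Genes of seed filling rose. Of 10 storage protein genes 9 rose and 0 fell (median 7.73), of 11 oil body genes 10 rose and 0 fell (median 4.52), and of 18 late embryogenesis and dehydrin genes 14 rose and 1 fell (median 4.69, or 3.77 where a member with 0 reads takes its bound). A vicilin-like precursor (Jr1DG00211500) had 42.0 and 299.9 CPM early and 4129 ± 189.7, 1799 ± 574 and 10750.2 ± 1534 CPM late. Legumin B (Jr1DG00199500) had 35.2 to 582 CPM early and 395 to 3017 CPM late, which overlap. Its highest stage mean lay outside the contrast, 5779 ± 2554 CPM at 11W, beside 2667 ± 383 CPM at 19W. The storage list summed to 17537 ± 7666 CPM at 11W, and to means of 9601, 3861 and 19814 CPM at 15W, 17W and 19W. The vicilin-like gene and Legumin B both had a lower mean at 17W than at 15W and at 19W. An oleosin (Jr4SG00041800), a coat protein of oil bodies, rose by 5.79 and a second (Jr2DG00039300) by 2.69 with overlap. The dehydrins ERD14 (Jr4DG00147900) and dehydrin 2 (Jr4SG00068600) rose by 1.78 and 1.90. They were high at 9W already, at 1228 and 694 CPM. These lists are the kernel markers, and what share of them came from kernel tissue was not tested. Of 49 fatty acid and oil synthesis enzymes 22 fell and 8 rose (median -0.58). Stearoyl-ACP desaturase (Jr1DG00212000) fell by 1.47 with overlap between 9W and 15W, and the microsomal omega-3 desaturase (Jr7DG00071700), which makes linolenic acid, rose from 44.5 and 36.4 CPM to between 202 and 776 CPM. Photosynthesis genes rose in 17 and fell in 9 of 53 members. Their summed level overlapped, at 972 to 1235 CPM early and 775 to 2133 CPM late. A Rubisco small chain gene (Jr2DG00055900) fell by 1.56 and an oxygen-evolving enhancer protein (Jr2SG00134000) rose by 1.19, both with overlap.

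Families known for regulators of stress and senescence rose more often than they fell. Of 59 WRKY factors 39 rose (66.1%) and 3 fell (median 2.36). WRKY33 (Jr7DG00064100), a defence regulator in Arabidopsis, read 32, 38.0 and 39.8 CPM in the 8W libraries, 223, 222 and 235 in those of 9W and 487 to 981 CPM late (log2 change 3.06 ± 0.0812 (SE), adjusted p = 1.19e-19). A further member (Jr5DG00087600) rose by 4.50. The list's summed level was 696 to 1206 CPM early and 2168 to 4569.6 CPM late. NAC factors, many of which act in senescence and wall formation, rose in 39 of 77 members (50.6%) and fell in 11 (median 1.29). NAC 21 (Jr6DG00175900) had 237 and 477 CPM early and 2195, 1164 and 1708 CPM late, and NAC 35 (Jr3DG00093600) rose by 1.93. Of 57 AP2/ERF factors 30 rose (52.6%) and 10 fell (median 1.82). RAP2-4 (Jr3SG00023700) rose from 39.7 ± 3.5 and 51.6 ± 3.73 CPM to 197 ± 19.0, 383 ± 35.4 and 314 ± 42.0 CPM, and ERF4-like (Jr5SG00048500) by 1.95 on the log2 scale.

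Rises and falls were nearer in number in the other factor families. MYB factors rose in 43 and fell in 36 of 145 members, and MYB44-like (Jr8DG00053300) and MYB1R1 (Jr6DG00032200) rose by 1.91 and 1.25. Of 79 bHLH factors 17 rose and 20 fell, and bHLH113 (Jr1DG00186900) and a Myc2 gene (Jr1DG00080600) rose by 1.16 and 1.74. Among 37 MADS-box factors 10 rose and 11 fell; the median log2 change of 0.08 became -0.08 (upper-quartile factors) and -0.20 (library sizes alone). The AGL9 homolog (Jr3DG00096400) rose by 1.24 and Jr3SG00117900 fell by 0.64. Homeobox factors fell in 32 and rose in 22 of 95 members. ATHB-12-like (Jr3SG00047400), which responds to water deficit in Arabidopsis, had 3.80 CPM at 8W, 75.4 at 9W and 188 to 435 CPM over the late stage means, and BEL1-like 6 (Jr3DG00061200) fell by 0.89.

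Among the hormone lists, that of ethylene had the largest share of rises. Of 44 genes of ethylene synthesis and signalling 28 rose (63.6%) and 1 fell (median 0.99), and 19 of the 28 were at the late level at 13W. EIN3-binding F-box protein 2 (Jr4DG00216300), which limits the ethylene response, read 158, 157 and 159 CPM in the 8W libraries, 96.8, 90.5 and 86.3 in those of 9W and 296 to 447 CPM late (log2 change 1.57 ± 0.0571 (SE), adjusted p = 9.68e-18). Ethylene receptor 2 (Jr1SG00119600) rose by 1.03 but overlapped, since 17W (217 CPM) was near 8W (213 CPM). Abscisic acid genes rose in 14 and fell in 5 of 44 members (median 0.56). Protein phosphatase 2C 51 (Jr3DG00233800) rose from 20.3 ± 2.99 and 22.5 ± 3.12 CPM to 116 ± 9.91, 188 ± 13.9 and 333 ± 43.8 CPM. Abscisic acid 8'-hydroxylase 1 (Jr6DG00090100), which breaks the hormone down, rose by 3.37 on the log2 scale. Jasmonate genes rose in 13 and fell in 7 of 29 members, with a median log2 change of 0.26 that was -0.02 with library sizes alone. The repressors TIFY 6B-like (Jr3SG00057100) and JAZ1 (Jr2DG00197700) rose by 1.46 and 1.34.

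The lists of brassinosteroid, cytokinin and gibberellin genes held more falls than rises. Brassinosteroid genes fell in 8 of 20 members and rose in 0 (median -0.78). BES1/BZR1 homolog 2 (Jr1DG00030100), a response factor, fell by 0.93 and delta(24)-sterol reductase (Jr3SG00069000), a synthesis enzyme, by 1.95, the latter with overlap. Cytokinin genes fell in 15 (28.3%) and rose in 5 (9.43%) of 53 members (median -0.14), so that their share of falls was near that over all genes tested. Their summed level overlapped, at 1971 to 2295 CPM early and 1071 to 2108 CPM late. Histidine phosphotransfer proteins pass the cytokinin signal on. The gene Jr7SG00112000 read 447, 405 and 372 CPM in the 8W libraries, 658, 585 and 761 in those of 9W and 3.32 to 23.2 CPM late (log2 change -5.87 ± 0.141 (SE), adjusted p = 2.2e-16), and Jr7DG00142500 fell by 1.15. Gibberellin genes fell in 11 and rose in 6 of 31 members. Ent-kaurenoic acid oxidase (Jr7DG00019600) and the receptor GID1C-like (Jr4DG00012600) rose by 1.21 and 0.87. Of 114 auxin genes 36 rose and 31 fell (median 0.29). The list's sum went from 5332 to 7563 CPM to 12607 to 14383 CPM, in which IAA29 held the stage means given above. GH3.9 (Jr4DG00117400), an auxin-conjugating enzyme, was called as a rise of 1.86 only with 9W in the contrast: 8W stood at 1512 CPM beside 1531 to 1895 CPM late, and without 9W the log2 change was 0.15 (adjusted p = 0.194).

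Autophagy genes, which recycle cell contents, rose in 18 of 37 members (48.6%) and fell in 1 (median 0.46). Their sum was 1541 to 1620.3 CPM early and 2503 to 3046 CPM late. Autophagy 9 (Jr2SG00187400), a membrane carrier of the autophagosome, read 86.3, 84.4 and 84.2 CPM in the 8W libraries, 63.6, 61.4 and 63.5 in those of 9W and 124 to 340.1 CPM late (log2 change 1.57 ± 0.0487 (SE), adjusted p = 4.77e-19). It was low until 13W (86.8 ± 6.13 CPM) and highest at 17W. Autophagy-related 13-like (Jr3DG00196200) rose by 1.12 with overlap. Only 1 of the 18 rises was at the late level at 11W, and 7 were at 13W. Of 116 proteases 45 fell and 26 rose (median -0.25). Aspartic proteinase 1 (Jr6DG00192800) rose by 0.74 and a saposin-like aspartyl protease (Jr5DG00087400) fell by 1.73.

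Heat shock proteins rose in 24 and fell in 10 of 66 members (median 0.56). Of the 24 rises 21 were at the late level at 11W and 4 at 13W. Heat shock 70 kDa protein 15-like (Jr1SG00149400) rose by 0.58, and an Hsp90 (Jr6DG00204500) fell by 1.20. Antioxidant genes rose in 19 and fell in 11 of 55 members (median -0.01), with the metallothioneins above among those with most reads. Summed over this list, levels overlapped, at 14223 to 16499 CPM early and 11203 to 23859 CPM late. Glutathione transferases and MATE transporters rose in 22 and fell in 14 of 66 members. Their summed level went the other way, from 3072 to 3616 CPM early to 2504 to 2816 CPM late. The omega-like transferase Jr5DG00073400 rose by 0.67. The list, matched by product name, also took in Jr5DG00163500, named for heavy metal transport/detoxification, which fell by 1.31. Its counts are therefore not of glutathione transferases and MATE transporters alone. Pathogenesis-related genes fell in 42 and rose in 23 of 102 members (median -0.75), with an osmotin-like gene (Jr7DG00094400) down from 134 and 377 CPM to 50.4 to 82.4 CPM and glucanase 14 (Jr7DG00138800) up by 3.24. Receptor kinases fell in 160 and rose in 99 of 486 members (median -0.29). ALE2 (Jr2DG00208400), needed for the cuticle of Arabidopsis embryos and leaves, rose by 1.28 and the At5g24010-type kinase Jr1DG00067000 by 2.56.

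Water and nitrogen transporters were mixed. Aquaporins rose in 6 and fell in 7 of 21 members, with a median log2 change of 0.22 that was -0.05 with library sizes alone. TIP2;1 (Jr1SG00147000) went from 275 ± 40.4 and 307 ± 35.2 CPM to 84.4 ± 10.9, 5.28 ± 2.43 and 23.0 ± 0.731 CPM. A second TIP3-2 gene (Jr8SG00076100) rose by 2.9 with overlap. Amino acid and peptide transporters rose in 26 and fell in 29 of 90 members, with a median of 0.10 that became -0.06 (upper-quartile factors) and -0.18 (library sizes alone). The vacuolar cationic amino acid transporter 2 (Jr5DG00157600) rose by 1.66, and oligopeptide transporter 3-like (Jr5DG00100600) had -0.24 with overlap and was not called without 9W.

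Some genes were flat within both classes and are called step-like here, a choice that did not use 11W and 13W. Stage means stayed within 1.5-fold in each class in 374 rises and 355 falls that changed at least 2-fold. Beside serine carboxypeptidase-like 25 and the SWEET4-like gene, the largest rises of this kind were VPS2.1 (Jr2DG00203600), an ESCRT subunit that sorts membrane cargo, isoeugenol synthase 1 (Jr2DG00242600), an enzyme of scent phenylpropenes, and an MtN19-like gene (Jr1DG00029800). MtN19-like had 82.5 ± 7.0 and 57.7 ± 2.91 CPM early and 532 ± 14.6, 574 ± 28.1 and 558 ± 30.7 CPM late (log2 change 3.01 ± 0.0531 (SE), adjusted p = 2.33e-23). Its 11W and 13W means, 221 and 268 CPM, lay between the classes, as did those of isoeugenol synthase 1, 8.40 and 12.1 CPM. VPS2.1 was flat within classes and yet uneven between them, with 128 CPM in 11W and 29.2 in 13W. The SWEET4-like gene was uneven too, with 43.0 CPM in 11W and 12.2 in 13W. The 5 largest step-like falls had at most 27.5 CPM in a stage. The ferric reduction oxidase FRO7 (Jr1DG00307600), a chloroplast iron reductase in Arabidopsis, went from 27.5 ± 0.674 and 19.9 ± 5.37 CPM to 0.861, 0.890 and 1.0 CPM. An acidic endochitinase-like gene (Jr1SG00038400), bHLH71 (Jr6DG00103800) and a gene named only as a transcription factor (Jr6DG00182900) fell by 5.49, 4.62 and 5.07. The bZIP34 gene (Jr7SG00058200) kept 3 reads over the 9 late libraries from 1369 over the early ones, a ratio of 495 (95% counting interval 174 to 2459). Its fitted log2 change of -8.58 was -9.24 without 15W replicate 1, -9.25 without 17W replicate 2 and -9.30 without 19W replicate 3.

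Called genes outside the rule missed it about as often by 1 pair of stages as by more. Of 3433 rises that were not one-sided, 1735 (50.5%) had 1 early and 1 late stage out of order, and of 3227 such falls 1613. The stage that crossed alone was 15W in 871 rises, 17W in 892 and 19W in 397, and 866, 767 and 376 in the falls. Among them MYB21 (Jr3DG00222200), a flower factor in Arabidopsis, had 0.414 CPM at 8W, 20.4 at 9W and 14.8 at 17W. A heavy metal transport gene (Jr3SG00044800) was at 0.295 CPM at 15W, as low as early, and at 12 and 18.9 CPM after. TANGO2 (Jr4SG00073200) had 2.62 CPM at 9W and 1.1 at 17W beside 71.2 at 19W. Among the falls, protodermal factor 1 (Jr2DG00179800), an epidermis gene, had 76.1 CPM at 8W, 0.742 at 9W and 1.64 at 15W, and its call was lost without 8W (adjusted p = 0.4). NtpR (Jr3DG00224200) and proline-rich protein 4 (Jr3SG00135300) were high at 8W alone among these 5 stages, at 23.1 and 40.3 CPM; NtpR did not pass without 8W (adjusted p = 0.114), and its log2 change of -4.30 was -4.96 without 17W replicate 3.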

How the data were processed

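RNA of pellicle from 7 stages, 3 libraries each, was, per the labels' protocols, freed of rRNA following oligo-dT purification and sequenced as paired-end stranded libraries; they speak of 16 libraries where 21 samples are listed. The deposited table holds a raw read count and an FPKM value per gene and library for 31425 genes, of which 5183 had 0 reads in all libraries. The submitters' processing notes name FastQC, HISAT2, Cufflinks and DESeq2. For the genome build, the counter and its use of strand, nothing was found (not given in the sources used here), so near-identical, overlapping and antisense genes are uncertain. The deposited FPKM equalled count over length and column total within a relative deviation of 5.11e-15 and was not tested. Product names are those of the table (16769 from NR, 6727 from Swiss-Prot, 7929 genes without one), and coordinates are those of the table.

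Counts of all 21 libraries were fitted with edgeR 4.0.16 (R 4.3.3, limma 3.58.1): robust quasi-likelihood, 1 coefficient per stage, TMM factors (0.880 to 1.14), and filterByExpr by stage with a minimum count of 10, which left 21707 genes. The biological coefficient of variation was 0.102. The contrast set the mean of 3 late stages against the mean of 2 early stages. The Benjamini-Hochberg adjustment ran over the 21707 genes, and calls were made at 0.05. Levels are mean ± SD of scaled CPM (n = 3). On simulated counts for this contrast, 50 of 50 genes raised 2-fold, 45 of 50 lowered to 0.5 of their level and 40 of 50 raised 1.5-fold were called, with 7 unchanged genes called, of 21707 genes. Intervals and floors cover counting error only.

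Genes named in the text were one-sided, had a product name and at least 10 CPM in the higher class: the 10 in each direction with the largest gap between nearest stage means, the 6 of at least 2-fold with most reads, the 5 largest step-like changes, and the 2 one-sided members of each list with most reads. The 3 largest changes in each direction that were called but not one-sided were added, and marker genes where a result turns on them. Members and lists were chosen with earlier results of these data known, and the matching of lists to product names was corrected after reading the names it caught. Replicate numbers did not pair libraries (30 same-number pairs, correlations of -0.0838 to 0.0596). The alternatives were other scalings, filters, DESeq2 1.42.0, a replicate block, the 15 libraries alone, and leaving out each library or stage. No gene identifier matched the reference gene table, and no sequence is shown.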

Additional observations from a re-analysis of the deposited data

How the results depend on the processing

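The counts of 5487 one-sided rises and 5597 falls stayed within 1.5 times under other scalings, filters and fits, apart from a fold minimum of at least 2-fold, which left 3077 rises and 3706 falls. DESeq2 gave 5250 and 5824, the 15 libraries alone 5194 and 5796, and no filter on low counts 5445 and 6274. A fit with the replicate number as a block gave 5488 and 5591, and the numbers do not pair the libraries. Leaving out each library in turn gave 5126 to 5544 rises and 5615 to 5995 falls. Of all called genes 50.3% rose, against 42.1% (upper-quartile factors) and 36.2% (library sizes alone). Without stage 8W the 3 LHY genes turned to log2 changes of -1.45 (Jr1DG00089700), -1.32 (Jr1SG00053700) and -1.17 (Jr1SG00053800), and the REVEILLE 1 gene Jr2DG00070000 to -1.09. Without 9W, Jr6SG00067800, which is not described above, reversed to a log2 change of 0.19. The cause was not tested. Leaving out 1 library moved the fold of 11 of 173 named genes by more than 1.5 times, mostly falls with few late reads. Leaving out 1 stage did so for 77 of the 173, in 60 without 8W, 60 without 9W, 14 without 15W, 23 without 17W and 16 without 19W. With 2 early stages, leaving out either shifts the change by about the same amount in opposite directions, so both counts of 60 hold the same genes. They are not comparable with the counts for late stages, where 2 stages remain in the class. Leaving out 1 stage gave 5936 to 7678 rises and 5985 to 7734 falls, since fewer stages had to lie in order. Over all named genes and alternatives, 4780 values kept direction and call, 30 lost a call, 28 gained one and 5 reversed. Where the lower class held 0 to 3 reads, depth limits how large a fold can be given.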

Other observations

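Some one-sided genes lay side by side on a chromosome with neighbours of the same protein family. Runs of at least 3 such neighbours numbered 14 among the rises and 7 among the falls. No number of same-family runs over all genes tested stands beside these counts, so they are not read as clustering. Coordinates are those of the deposited table, and near-identical copies may share reads. On chromosome 3D (28524808 to 28580476) 4 major latex protein genes summed to 0.923 to 4.43 CPM over the early libraries and 136 to 346 CPM over the late ones. A run of 4 genes named salutaridine reductase or alike on chromosome 6S (20979899 to 21007614) summed to 0.382 to 1.99 CPM early and 63.9 to 239.9 CPM late. On chromosome 6D (2132489 to 2156327) 3 cytochrome P450 71A1 genes, of a family of oxidising enzymes, went from 0.364 to 9.23 CPM to 454 to 871 CPM. On chromosome 4D (31626002 to 31644296) 4 xyloglucan endotransglucosylase genes went from 59.1 to 86.1 CPM to 458 to 2086 CPM.

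Among the falls, 3 laccase genes on chromosome 8D (1120853 to 1160849), laccase-9 of the report included, summed to 216 to 293 CPM early and 1.06 to 5.16 CPM late. A run of 3 potassium transporters on chromosome 3D (14592753 to 14639528) went from 133 to 193 CPM to 39.3 to 61.6 CPM. The one-sided genes took like shares of chromosomes named D (25.5% rose and 25.6% fell of 12795 genes) and S (24.9% and 26.1% of 8867). No product name was given for 951 one-sided rises (17.3%) and 830 falls (14.8%), beside 16.3% of the genes tested.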
